A study of Mus musculus with 15 samples.

Results

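The nuclear-encoded subunits of oxidative phosphorylation were followed in differentiating mouse myoblasts after knockdown of Lmod1 or of Sirt1. Members were the mouse protein-coding genes whose symbol in GENCODE M21 begins with Ndufa, Ndufb, Ndufc, Ndufs or Ndufv and a digit, with Uqcr, Cox4 to Cox8 or Atp5, together with Ndufab1 and Sdha to Sdhd. Assembly factors (Ndufaf) were left out. The rule gave 86 gene IDs, of which 85 had a row among the 49315 genes of the count tables; the 86th, a second ID named Atp5o, had none. By complex they were 38 members of complex I, 4 of complex II, 8 of complex III, 18 of complex IV and 17 of complex V. Older symbols are kept, so Atp5f1 is subunit b of ATP synthase and Atp5d its delta subunit. Ndufa4 is counted with complex I by its name, although its protein is now placed in complex IV. The complex III subunit Cyc1 and the electron carrier Cycs do not fall under the rule and are given with the related genes.

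Oxidative phosphorylation makes ATP at the inner mitochondrial membrane. Complexes I and II feed electrons from NADH and succinate to ubiquinone, complex III passes them to cytochrome c, complex IV reduces oxygen, and complex V, the ATP synthase, uses the proton gradient that complexes I, III and IV build. Most subunits are encoded in the nucleus and imported, while a small catalytic set is encoded by mitochondrial DNA. Skeletal muscle cells that leave the cell cycle and fuse build up mitochondria, and several complex IV subunits exist in a widely expressed form and a form found mainly in muscle and heart.

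Primary myoblasts, the muscle precursor cells, came from wild-type C57BL/6J mice and were prepared as 5 separate cell lines, numbered 1, 2, 3, 4 and 7. Cells of every line received, by lipid transfection, a control small interfering RNA (siCtrl), one against Lmod1 (siLmod1) or one against Sirt1 (siSirt1), and were then kept under differentiation conditions for 1 day. The replicate numbers of the labels are read as the numbers of the lines. This gave 3 groups of 5 libraries, 15 in all. Lmod1 encodes leiomodin 1, a protein that nucleates actin filaments, and Sirt1 the deacetylase sirtuin 1, which consumes NAD. The study asked which early transcripts change when either is lowered. Polyadenylated RNA was sequenced in bulk, so fewer cells of a type and less RNA per cell cannot be told apart. The kit does not keep the strand. The age and sex of the animals and the sequences of the small interfering RNAs were not used here.

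Total counts per library ran from 26097889 to 33601761 for siCtrl, 27135398 to 31829009 for siLmod1 and 21004908 to 27815744 for siSirt1. Lmod1 stood at 23.8 ± 12.4 TPM (a level scaled for gene length and depth) in siCtrl and at 2.79 ± 1.24 in siLmod1 (SD, n = 5), and Sirt1 at 15.1 ± 4.06 in siCtrl and at 4.01 ± 2.21 in siSirt1. An exact two-sided permutation test gave p = 0.00794 for each, the smallest that 5 against 5 libraries allow. Sirt1 was also higher in siLmod1, at 22.6 ± 5.69 TPM (exact permutation p = 0.0397). Lmod1 stood at 14 ± 9.3 TPM in siSirt1, lower than its control in 5 of 5 lines (blocked log2 fold change -0.96, edgeR adjusted p = 0.027; exact permutation p = 0.278 without pairing), so the siSirt1 libraries also held less Lmod1. All 6 myogenic markers (Myod1, Myf5, Pax7, Myog, Des, Cdh15) passed the count filter, with summed levels of 5382 to 10865 TPM over the 15 libraries, while the 4 adipocyte markers stayed under 1 TPM in every library. Of all counts, the members held 1.57 ± 0.141% (siCtrl), 1.82 ± 0.21% (siLmod1) and 1.44 ± 0.213% (siSirt1), and the mitochondrially encoded subunits took 2.33 ± 0.296%, 2.8 ± 0.425% and 2.45 ± 0.394%. Some of the mitochondrially encoded genes were scarce in these libraries, such as mt-Co2 at 4.63 ± 0.761 TPM in siCtrl beside mt-Co1 at 15798 ± 2131.

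Most members were abundant transcripts in the control cells. Of the 85 members, 81 passed the count filter in each comparison. In siCtrl these 81 had a median of 278 TPM, beside 13.8 TPM over all 15022 genes tested with siLmod1, and 69 of them exceeded 100 TPM. The median level was 192 TPM in complex I (37 members), 251 in complex II (4), 350 in complex III (8), 406 in complex IV (15) and 348 in complex V (17). The highest were Atp5b, the catalytic beta subunit of ATP synthase, at 1937 ± 320 TPM and Cox8a, a small structural subunit of complex IV, at 1669 ± 52.5 TPM (SD, n = 5), whose libraries overlapped in the range from 1642 to 1717 TPM. The lowest among the members that passed were Cox6b2, a testis-type paralog, at 6.48 ± 5.48 TPM, and Atp5s, coupling factor B, at 17.1 ± 3.83 TPM, followed by Cox7a1 at 32.5 ± 20.4 TPM and Ndufb2, the lowest of complex I, at 32.7 ± 5.21 TPM.

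The other 4 members were paralogs at or near the limit of detection. Cox8c had 0 counts in all 15 libraries, which allows up to 0.0893 to 0.143 CPM by library (3 counts of the total, for counting error only). Cox7b2 had 3 counts in all, Ndufa4l2, a hypoxia-induced paralog of Ndufa4, 42, and Cox4i2, the lung-type isoform of subunit 4, 74. Cox4i2 took 0.0841 ± 0.0382% of the TPM it shares with Cox4i1 in siCtrl, 0.0591 ± 0.0391% in siLmod1 and 0.126 ± 0.0743% in siSirt1.

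**Figure D1:**
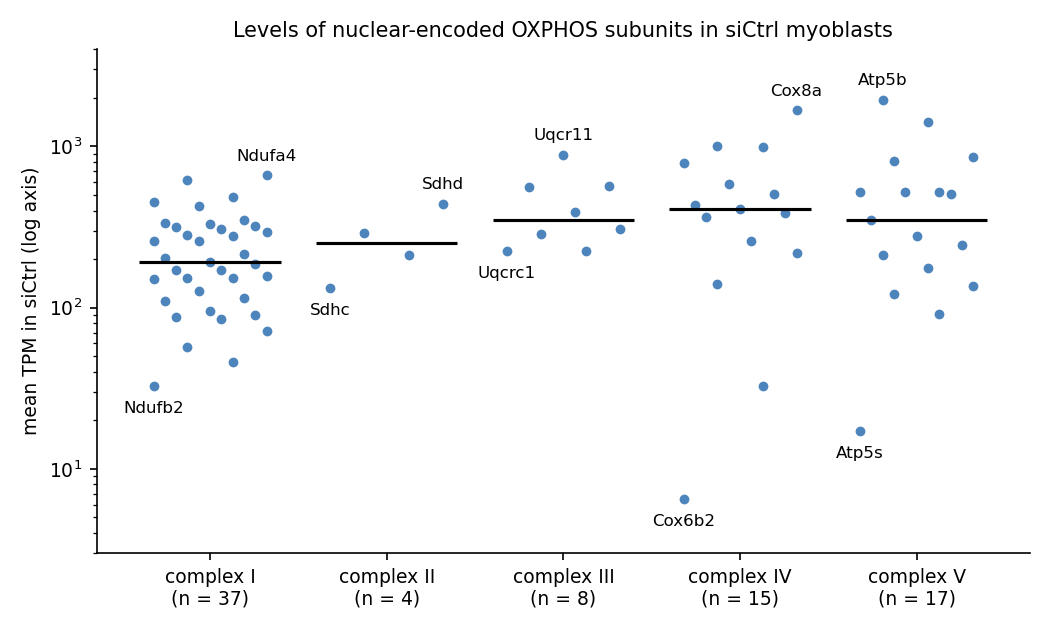
Mean TPM (log axis) over the 5 siCtrl libraries of the 81 members that passed the count filter, by complex; each point is 1 member, the bar is the median of the complex, and the highest and lowest member of each complex are named. Complex IV has the highest median (406 TPM) and also the lowest member, Cox6b2 at 6.48 TPM.

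The 5 control lines differed little in most members and strongly in a few. The ratio of the highest to the lowest siCtrl line had a median of 1.38 over the 81 members, beside 1.93 over all genes tested, and stayed under 2 for 77 of them. The other 4 were the complex IV paralogs Cox6b2 (10.9), Cox6a2 (7.56), Cox7a1 (6.82) and Cox8b (3.35), of which the last 3 are the muscle-type isoforms. Line 7 had the lowest level of 55 members and line 3 the highest of 42. Line 4 was lowest for 20 and highest for 13.

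Promoter sequence was taken from RefSeq (GRCm38.p6), as the window from 250 bases before to 50 bases after the annotated start, and 67 of the 85 members had an entry. Motifs were searched on both strands. The NRF1 core (GCGCANGCGC) was present in 17 of 67 members (25.4%), beside 5.19% of all 27025 genes in the table. The ETS core bound by GABP (CCGGAAG) was present in 16 (23.9%, beside 9.93%) and the YY1 core (AAGATGG) in 10 (14.9%, beside 7.28%). The E-box CAGCTG, a site favoured by myogenic factors that was searched after the values had been seen, was present in 6 (8.96%, beside 18.3%). The counts describe letters in a window, not bound sites.

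Windows of 5 genes are shown, chosen for their place in the expression results. They are the muscle-type and the widely expressed isoform of complex IV subunit 8, the member with the largest rise in siLmod1, the flavoprotein of complex II, and a complex I subunit that fell in siSirt1. A relation between motifs and fold changes was not tested. Capitals mark matches to these motifs on either strand, none of which overlap each other. Cox8b (chr7:140900397-140900696, minus strand) held 2 E-boxes and none of the other motifs, Cox8a (chr19:7217567-7217866, minus strand) held 2 ETS cores, Cox7a1 (chr7:30183921-30184220, plus strand) held none of the 4, Sdha (chr13:74350191-74350490, minus strand) held 3 NRF1 cores and Ndufs8 (chr19:3912725-3913024, minus strand) held 1 ETS core.
Cox8b: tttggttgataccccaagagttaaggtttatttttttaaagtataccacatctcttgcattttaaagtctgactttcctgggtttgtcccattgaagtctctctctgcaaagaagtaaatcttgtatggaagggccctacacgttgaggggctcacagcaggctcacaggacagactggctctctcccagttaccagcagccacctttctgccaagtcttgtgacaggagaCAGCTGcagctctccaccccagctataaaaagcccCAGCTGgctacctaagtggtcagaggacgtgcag
Cox8a: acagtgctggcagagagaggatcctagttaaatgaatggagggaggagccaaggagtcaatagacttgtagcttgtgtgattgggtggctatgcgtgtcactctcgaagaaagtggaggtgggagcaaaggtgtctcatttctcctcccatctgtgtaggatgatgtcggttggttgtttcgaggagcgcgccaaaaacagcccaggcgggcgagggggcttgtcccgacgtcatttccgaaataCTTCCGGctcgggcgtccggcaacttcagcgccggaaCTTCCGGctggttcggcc
Cox7a1: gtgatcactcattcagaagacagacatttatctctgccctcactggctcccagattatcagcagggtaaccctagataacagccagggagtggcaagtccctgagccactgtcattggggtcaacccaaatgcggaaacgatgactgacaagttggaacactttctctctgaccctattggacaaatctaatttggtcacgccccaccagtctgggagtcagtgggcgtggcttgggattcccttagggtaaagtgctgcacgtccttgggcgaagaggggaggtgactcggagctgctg
Sdha: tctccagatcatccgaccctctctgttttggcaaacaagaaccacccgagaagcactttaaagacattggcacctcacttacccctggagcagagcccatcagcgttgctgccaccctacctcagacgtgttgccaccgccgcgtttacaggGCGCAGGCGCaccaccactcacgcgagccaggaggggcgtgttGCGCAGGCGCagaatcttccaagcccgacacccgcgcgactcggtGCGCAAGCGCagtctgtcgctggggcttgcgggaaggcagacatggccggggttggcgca
Ndufs8: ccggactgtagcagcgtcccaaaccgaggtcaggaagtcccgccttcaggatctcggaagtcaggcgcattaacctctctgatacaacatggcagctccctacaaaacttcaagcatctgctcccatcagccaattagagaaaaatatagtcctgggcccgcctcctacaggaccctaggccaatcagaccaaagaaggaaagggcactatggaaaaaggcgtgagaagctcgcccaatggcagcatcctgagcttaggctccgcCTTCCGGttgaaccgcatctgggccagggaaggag

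In siLmod1, members of all 5 complexes rose slightly and together once each line was compared with its own control. Each line was entered as a block in edgeR's quasi-likelihood fit, and a call required an adjusted p (Benjamini-Hochberg, over all genes tested) under 0.05. With the block, 45 of 81 members rose, beside 12.9% of all genes, and 4 fell, beside 16.5%. The median blocked log2 fold change was 0.18 over the members and -0.01 over all genes. By complex 18 of 37 members rose in complex I, 3 of 4 in complex II, 6 of 8 in complex III, 9 of 15 in complex IV and 9 of 17 in complex V, with medians of 0.16, 0.24, 0.20, 0.18 and 0.17. In 39 members the siLmod1 library was higher in 5 of 5 lines (16.9% of all genes), and in 3 it was lower in 5 of 5 (19.4%).

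Without the block, edgeR called none of the members and 0.113% of all genes (17 of 15022). At an unadjusted p under 0.05, 14 members were higher (4.23% of all genes) and 0 lower (4.77%). DESeq2 without the block called 0 of 84 members, beside 100 higher and 161 lower of 30184 genes. With the block DESeq2 called 41 of the 84 higher and 4 lower, beside 1673 and 2302 genes. The blocked edgeR count depended on the lines: it was 21 higher without line 1 and 26 without line 3, against 51 without line 2. All genes called higher were 1174, 1428 and 1694 in those 3 fits, beside 1944 with all lines. Of the 45 members, 21 kept their call whichever line was left out. With all 15 libraries in 1 blocked fit, 7 rose and 0 fell, beside 600 and 827 of 15716 genes. The median log2 difference of the members was 0.24, 0.00, 0.21, 0.24 and 0.15 in lines 1, 2, 3, 4 and 7, so the median of line 2 showed no shift. Of the 45 members called higher 13, and of the 4 called lower 2, have an exon that overlaps another gene, and such reads cannot be assigned without strand.

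**Figure D2:**
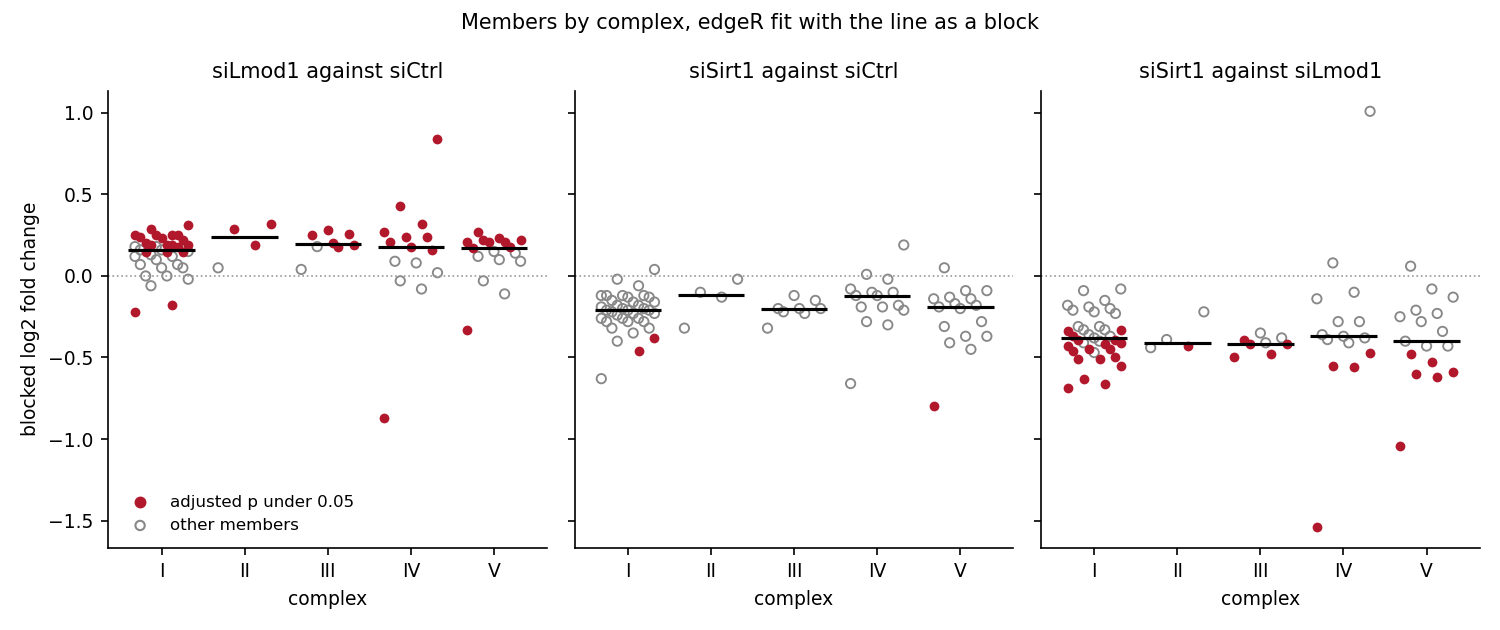
Blocked log2 fold change of the 81 members tested, by complex, in the 3 comparisons; each point is 1 member, filled where the adjusted p was under 0.05, and the bar is the median of the complex. In siLmod1 the complex medians lie between 0.16 and 0.24, and in siSirt1 against siLmod1 between -0.41 and -0.37.

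In complex I, both core and accessory subunits rose: 3 of 7 core subunits of the arm that takes electrons from NADH and 15 of 30 accessory subunits were called higher, both with a median of 0.16. Ndufv1, the subunit that binds NADH, stood at 184, 184, 228, 160 and 173 TPM in siCtrl lines 1, 2, 3, 4 and 7, and at 245, 213, 272, 210 and 203 TPM in siLmod1. It was higher in 5 of 5 lines, although the ranges overlap, with line 3 the highest in both groups. Its blocked log2 fold change was 0.25 (SE 0.05, adjusted p = 0.0039; adjusted p = 0.42 without the block). Ndufb11, an accessory subunit of the membrane arm, stood at 312.3, 338.9, 322.8, 356.2 and 311.7 TPM in siCtrl and at 432.4, 365.5, 413.8, 472.7 and 390.8 TPM in siLmod1, groups that do not overlap (0.29, SE 0.06, adjusted p = 0.0061). Ndufa4, the most abundant of the complex by its name, went from 661 ± 97.4 to 846 ± 118 TPM (0.31, SE 0.05, adjusted p = 0.0014; adjusted p = 0.54 without the block) and was higher in 5 of 5 lines.

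A pair of accessory subunits of complex I went the other way and are named because so few did, after their values had been seen. Ndufa12 fell by 0.18 with the block (SE 0.05, adjusted p = 0.013) and Ndufab1, the mitochondrial acyl carrier protein, fell by 0.22 (SE 0.05, adjusted p = 0.012), each lower in 5 of 5 lines. The call of Ndufab1 was lost without line 2. Neither passed without the block (adjusted p = 0.86 and 0.73).

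Complex II, the succinate dehydrogenase that also serves the tricarboxylic acid cycle, had the highest median of the 5 complexes. Sdha, its flavoprotein, stood at 252, 322, 294, 303 and 283 TPM in siCtrl lines 1, 2, 3, 4 and 7 and at 348, 374, 362, 419 and 366 TPM in siLmod1. Every siLmod1 library lay above every siCtrl library (0.32, SE 0.05, adjusted p = 0.0018; adjusted p = 0.44 without the block). Sdhd, a membrane anchor, went from 441 ± 61.2 to 556 ± 63.5 TPM (0.29, adjusted p = 0.0022) and was higher in 5 of 5 lines. Sdhc, the other anchor, went from 132 ± 17.2 to 155 ± 17.3 TPM (0.19, adjusted p = 0.033) and was higher in 4 of 5, and its call was lost without any of lines 1, 3, 4 and 7. Sdhb, the iron-sulfur subunit, was at 211 ± 32.6 and 228 ± 49.6 TPM and did not pass (0.05, adjusted p = 0.55).

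In complex III all 8 members had a blocked log2 fold change above 0, from 0.04 to 0.28. Uqcrfs1, the Rieske iron-sulfur protein, stood at 382, 437, 421, 344 and 385 TPM in siCtrl and at 503, 511, 507, 480 and 465 TPM in siLmod1. The groups do not overlap, and the fold change was 0.28 (SE 0.05, adjusted p = 0.0023; adjusted p = 0.3 without the block). Uqcrc2, a core protein, was likewise apart in all libraries, at 266 to 308 TPM in siCtrl and 329 to 389 TPM in siLmod1 (0.26, SE 0.05, adjusted p = 0.0022). Uqcrc1, the other core protein, rose by less (0.18, adjusted p = 0.039) and kept its call only when line 2 was the line left out. Uqcr11, a small subunit and the most abundant of the complex at 883 ± 139 TPM in siCtrl, was at 0.04 (adjusted p = 0.63).

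Complex IV held the largest rise and the largest drop of the set. Of its 10 widely expressed subunits 7 rose, with a median of 0.20, among them Cox7c, a small subunit that stood at 361 to 414 TPM in siCtrl and at 459 to 534 TPM in siLmod1 without overlap (0.32, SE 0.06, adjusted p = 0.0043). Cox8a was apart as well, at 1599 to 1717 and 1720 to 2111 TPM, but by a smaller step (0.18, adjusted p = 0.042), and its call was lost without any of lines 1, 3, 4 and 7. Cox5a, another widely expressed subunit, went from 219 ± 22 to 273 ± 28.9 TPM (0.27, adjusted p = 0.0051). Cox4i1, the main form of subunit 4, Cox6a1 and Cox7a2l, a factor of supercomplex assembly, were at 0.08, 0.02 and -0.03 and did not pass (adjusted p = 0.32, 0.81 and 0.63).

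Of the 3 muscle-type isoforms of complex IV, 2 rose in siLmod1. Cox7a1 stood at 18.9, 29.5, 46.7, 58.8 and 8.62 TPM in siCtrl lines 1, 2, 3, 4 and 7, at 32.6, 44.8, 77.9, 118.7 and 24.1 TPM in siLmod1, and at 13.3, 32.0, 28.6, 22.7 and 8.13 TPM in siSirt1. Each siLmod1 library exceeded the control of its own line, while the groups overlap and the lines differ by several fold. The blocked fold change was 0.84 (SE 0.13, 1.79-fold, adjusted p = 0.0011), and 0.82 (SE 0.57, adjusted p = 0.77) without the block. Its share of the TPM of Cox7a1 and Cox7a2 was 3.56, 6, 7.42, 9.88 and 2% in siCtrl and 5.11, 7.44, 10.4, 14.2 and 4.54% in siLmod1, higher in each line, and the widely expressed Cox7a2 rose too, by less (0.24, adjusted p = 0.0034).

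Cox8b, the muscle form of subunit 8, stood at 746, 724, 821, 245 and 393 TPM in siCtrl and at 1048, 831, 1046, 445 and 563 TPM in siLmod1. It was higher in 5 of 5 lines (0.43, SE 0.08, 1.35-fold, adjusted p = 0.0028; adjusted p = 0.83 without the block), and its share of the subunit 8 TPM went from 25.1 ± 8.33 to 28.1 ± 7.26%. Cox6a2, the muscle form of subunit 6a, did not follow: it stood at 177, 362, 402, 53.2 and 289 TPM in siCtrl and at 155, 280, 563, 57.6 and 251 TPM in siLmod1, lower in 3 lines and higher in 2 (-0.08, SE 0.11, adjusted p = 0.65). Its exons overlap those of Itgad on the opposite strand.

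Cox6b2 fell by 0.87 with the block (SE 0.26, adjusted p = 0.031; adjusted p = 0.69 without it). It stood at 8.70, 2.31, 14.8, 1.36 and 5.20 TPM in siCtrl and at 3.09, 2.12, 6.61, 1.92 and 2.35 TPM in siLmod1, lower in 4 of 5 lines, and it took 0.67 ± 0.591% of the TPM of Cox6b1 and Cox6b2 in siCtrl. Its call was lost without line 1, 3 or 7. Cox6b1, the widely expressed form, went from 1006 ± 90.8 to 1206 ± 162 TPM (0.21, adjusted p = 0.011).

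**Figure D3:**
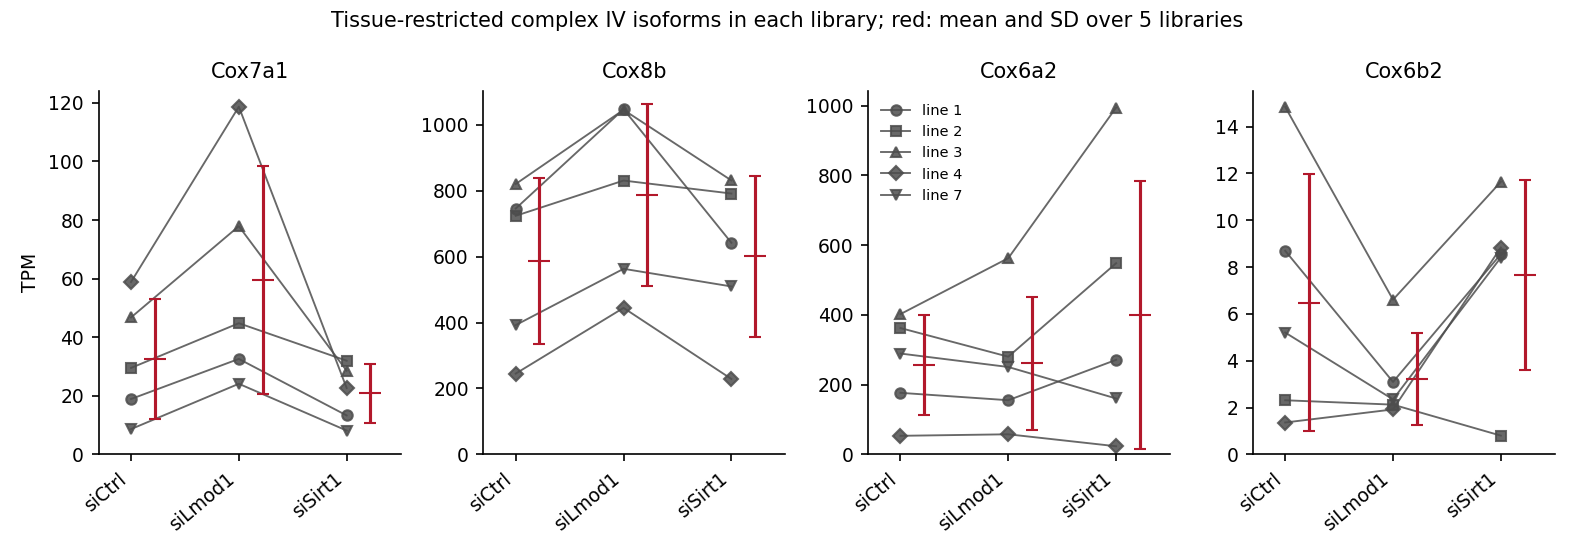
TPM of Cox7a1, Cox8b, Cox6a2 and Cox6b2 in each of the 15 libraries; lines join the libraries of 1 primary line, and red marks give the mean and SD over 5 libraries. Cox7a1 and Cox8b are higher in siLmod1 than in siCtrl in all 5 lines, while Cox6a2 in siSirt1 runs from 23.3 TPM in line 4 to 994.6 TPM in line 3.

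In complex V, the ATP synthase, 9 of 17 members rose, spread over its head, its stalks and its membrane part, and 1 fell. Atp5l, subunit g of the membrane part, stood at 98.2, 86.7, 99.7, 93.98 and 81.01 TPM in siCtrl and at 122, 100.2, 116, 126 and 108 TPM in siLmod1, apart in all libraries (0.27, SE 0.05, adjusted p = 0.0035; adjusted p = 0.41 without the block). Atp5g3, which gave 74.3 ± 0.836% of the c-ring TPM in siCtrl, rose (0.23, adjusted p = 0.013), while its paralogs Atp5g1 (0.14, adjusted p = 0.093) and Atp5g2 (-0.03, adjusted p = 0.74) did not pass. The 3 genes encode the same mature c subunit behind different import sequences. Atp5b rose by 0.17 (adjusted p = 0.029), a call lost without line 1, 3 or 7.

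The member that fell was Atp5d, the delta subunit of the central stalk. It stood at 601, 532, 467, 585 and 428 TPM in siCtrl lines 1, 2, 3, 4 and 7 and at 463, 429, 434, 512 and 311 TPM in siLmod1. The groups overlap, but each siLmod1 library was below its own control (-0.33, SE 0.06, adjusted p = 0.0021; adjusted p = 0.59 without the block), and the call held whichever line was left out. Its exons overlap those of Cbarp on the opposite strand, which stood at 7.13 ± 1.51 and 6.42 ± 0.78 TPM.

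Summed over the members, the level went from 29678 ± 2425 TPM in siCtrl, 2.97% of the total, to 34387 ± 3392 TPM in siLmod1 (3.44%). Within lines 1, 2, 3, 4 and 7 the sum in siLmod1 was 1.19, 1.06, 1.15, 1.27 and 1.13 times that in siCtrl. The ratio exceeded 1 in 5 of 5 lines in every complex, from 1.03 in complex IV of line 2 to 1.33 in complexes II and III of line 4. These sums are in TPM without TMM scaling, and on log2(TPM + 1) the median of all genes was 0.04. On TMM-scaled counts the median of line 2 was 0.00 over the members and -0.02 in complex IV.

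**Figure D4:**
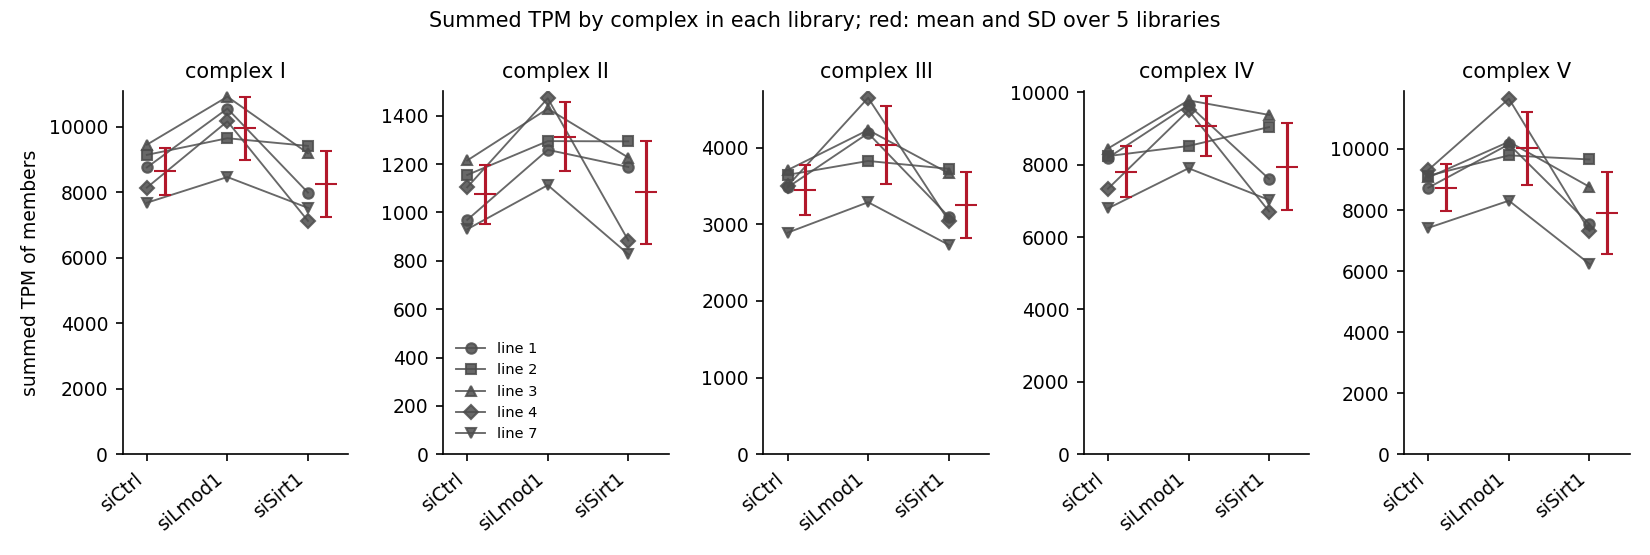
Summed TPM of the members of each complex (linear axis from 0) in the 15 libraries; lines join the libraries of 1 primary line, and red marks give the mean and SD over 5 libraries. In every complex the siLmod1 value lies above the siCtrl value of its own line in 5 of 5 lines. On TMM-scaled counts the members' median in line 2 was 0.00.

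In siSirt1, most members lay slightly below siCtrl, and few were called even with the line as a block. Of 81 members 77 had a blocked log2 fold change below 0, with a median of -0.20 beside 0.01 over all genes. With the block, edgeR called 0 members higher (2.72% of all genes) and 3 lower (4.35%), a share close to that of all genes. Without the block it called 0 members and 0.127% of all genes. At an unadjusted p under 0.05, 0 members were higher (4.86% of all genes) and 4 lower (4.79%). DESeq2 called 0 of 84 members without the block, beside 101 higher and 193 lower of 29998 genes. With the block it called 9 members, all lower, beside 746 higher and 1194 lower genes. In 24 members siSirt1 was lower in 5 of 5 lines (12.6% of all genes), and in 0 it was higher in all 5 (12.4%). The line medians were -0.31, -0.01, -0.01, -0.43 and -0.24 in lines 1, 2, 3, 4 and 7. Pairing with siCtrl was least clear for line 1 of siSirt1.

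Among the members that fell were Ndufs8 and Atp5f1. Ndufs8, an iron-sulfur subunit of complex I, stood at 299.9, 286, 363, 245 and 269 TPM in siCtrl and at 218, 267, 302, 178 and 217 TPM in siSirt1. It was lower in 5 of 5 lines with overlapping groups, at -0.46 (SE 0.10, adjusted p = 0.035; adjusted p = 0.41 without the block). The call was lost when any 1 line was left out.

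Atp5f1, subunit b of the peripheral stalk, fell furthest. It stood at 285, 304, 305, 267 and 228 TPM in siCtrl lines 1, 2, 3, 4 and 7 and at 189.6, 275, 212, 130.3 and 111 TPM in siSirt1, lowest in lines 4 and 7 and least changed in line 2. The blocked fold change was -0.80 (SE 0.16, 0.573-fold, adjusted p = 0.028; -0.72 with adjusted p = 0.38 without the block), and the call held only when line 2 was the line left out. Its exons overlap those of Wdr77 on the opposite strand, which fell as well, from 31.3 ± 7.82 to 24.7 ± 4.59 TPM (-0.46, adjusted p = 0.02). Reads of the 2 genes in the overlap cannot be told apart without strand.

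By complex the blocked medians were -0.21, -0.12, -0.20, -0.12 and -0.19 for complexes I to V. Ndufb3, an accessory subunit of complex I, stood at 197.8, 194.1, 250.9, 251.5 and 182.7 TPM in siCtrl and at 189.1, 187, 201.1, 177.2 and 186.6 TPM in siSirt1. On TMM-scaled counts it was lower in 5 of 5 lines (-0.15 in line 7), while in TPM line 7 was slightly higher. It did not pass (-0.32, SE 0.11, adjusted p = 0.11). Sdha, which rose in siLmod1, did not pass in siSirt1, at 299 ± 31.1 TPM beside 291 ± 25.9 in siCtrl (-0.10, adjusted p = 0.59). Cox7a1 was lower in 4 of 5 lines (-0.66, SE 0.26) and did not pass (adjusted p = 0.16), and Cox8b was at -0.10 (SE 0.11, adjusted p = 0.63). Cox6a2 split by line: at 271, 548, 994.6, 23.3 and 160.3 TPM it was higher than its control in lines 1, 2 and 3 and lower in lines 4 and 7 (0.01, SE 0.38, adjusted p = 0.99). The summed level was 28431 ± 4041 TPM, with ratios to siCtrl of 0.91, 1.06, 1.01, 0.853 and 0.947 by line, above 1 in 2 of 5. On the TPM scale the median of all genes in siSirt1 against siCtrl was 0.12 and that of the members -0.06.

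**Figure D5:**
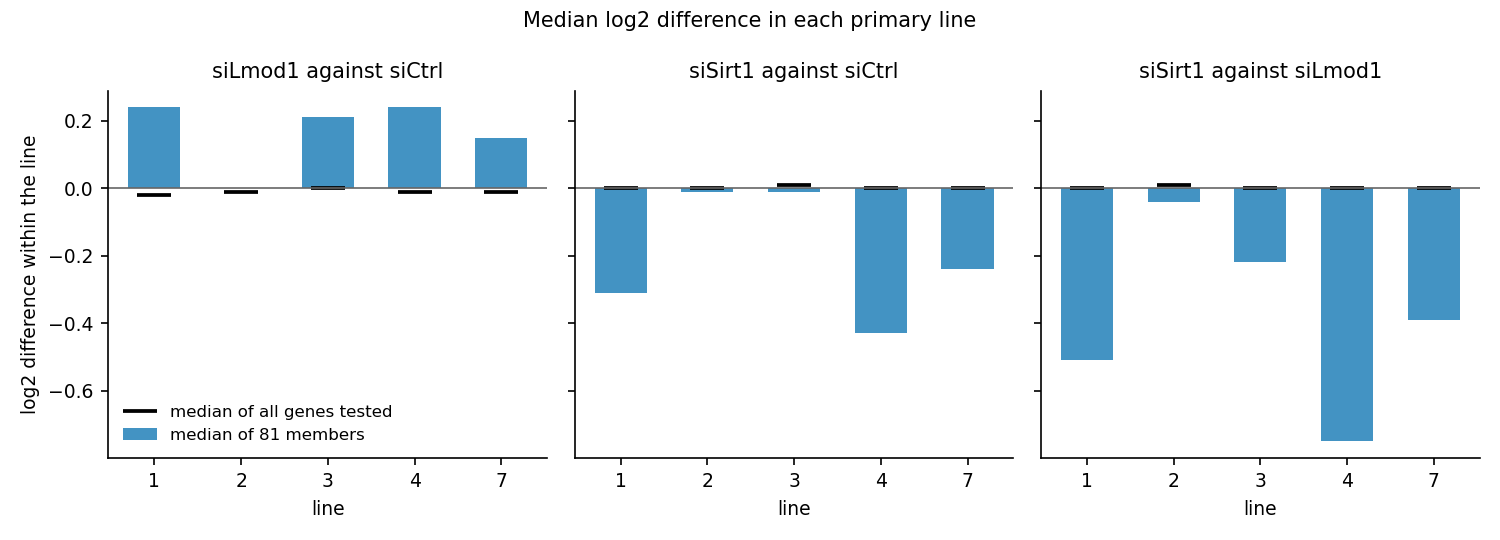
Median log2 difference within each primary line (TMM-scaled counts) of the 81 members (bars) and of all genes tested (black marks) in the 3 comparisons. The members stand above 0 in siLmod1 in every line but line 2 (0.00), and near 0 in siSirt1 in lines 2 and 3 (-0.01 each).

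Set against each other, the knockdowns lay further apart in the members' median than either did from siCtrl. This comparison shares its libraries with the other 2, so it is not an independent result. With the block, 34 of 81 members were lower in siSirt1 than in siLmod1 (8.43% of all genes) and 0 higher (7.43%), with a median of -0.39 beside 0.01 over all genes. They were 18 of 37 in complex I, 1 of 4 in complex II, 5 of 8 in complex III, 4 of 15 in complex IV and 6 of 17 in complex V. In 46 members siSirt1 was lower in 5 of 5 lines (15.5% of all genes), and in 0 higher (14.9%). Without the block edgeR called 0 members and 1.53% of all genes. At an unadjusted p under 0.05, 44 members were lower (8.33% of all genes) and 0 higher (8.17%). DESeq2 called 8 of 84 members lower without the block and 48 with it, beside 467 and 1566 of 30093 genes. The blocked edgeR count fell to 3 without line 1, 6 without line 3, and 8 without line 4 or 7. Without line 2 it was 45 lower and 1 higher. All genes called lower were 569, 517, 756, 879 and 949 without line 1, 3, 4, 7 and 2, beside 1264 with all lines. In the blocked fit of all 15 libraries 60 members were lower and 0 higher, beside 2084 and 2126 of 15716 genes. The line medians were -0.51, -0.04, -0.22, -0.75 and -0.39 in lines 1, 2, 3, 4 and 7.

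The widest gaps were in Cox7a1 and Atp5f1. Cox7a1 was lower in siSirt1 in 5 of 5 lines, at -1.54 (SE 0.28, 0.344-fold, adjusted p = 0.012; -1.59 with adjusted p = 0.17 without the block), and Atp5f1 at -1.04 (SE 0.19, adjusted p = 0.011; adjusted p = 0.1 without the block). Both calls held whichever line was left out. Cox8b was lower by 0.55 (SE 0.15, adjusted p = 0.046), a call that was kept only without line 2. Ndufs8 was at -0.66 (adjusted p = 0.014), a call that was lost without line 1. In complex V Atp5mpl, a small membrane subunit, was at -0.60 (SE 0.12, adjusted p = 0.017; lost without line 1), Atp5g3 at -0.62 (adjusted p = 0.031) and Atp5b at -0.59 (adjusted p = 0.033), the last pair keeping their calls only when line 2 was the line left out. Atp5b libraries did not overlap, at 1899 to 2993 TPM in siLmod1 and 1238 to 1893 TPM in siSirt1. The 3 members above 0 did not pass: Cox6b2 at 1.01 (SE 0.45, adjusted p = 0.16), Cox6a2 at 0.08 and Atp5g2 at 0.06.

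Related mitochondrial genes were read from lists chosen for the pathway, beside the blocked shares of all genes, 12.9% higher and 16.5% lower in siLmod1 and 2.72% higher and 4.35% lower in siSirt1. Of the 13 mitochondrially encoded subunits 2 rose in siLmod1 with the block, mt-Co1, the catalytic subunit of complex IV (0.25, adjusted p = 0.019), and mt-Nd4 of complex I (0.23, adjusted p = 0.026), and none passed in siSirt1. The share that rose lay near that of all genes. The list's median was 0.17 in siLmod1 and -0.15 in siSirt1. It joins 7 abundant genes and 6 scarce ones, and the cause of that gap in level was not tested. In siSirt1 the 7 genes at 4028 to 15798 TPM in siCtrl (mt-Nd1, mt-Nd2, mt-Nd4, mt-Nd5, mt-Nd6, mt-Cytb and mt-Co1) lay between -0.17 and 0.09, and the other 6, at 4.63 to 55.8 TPM in siCtrl (mt-Co2 to mt-Nd3), between -0.74 (mt-Atp8) and 0.12 (mt-Nd4l). The list's summed TPM was higher than siCtrl in 4 of 5 lines in siLmod1 and in 5 of 5 in siSirt1, so for siSirt1 the sum on the TPM scale and the median of the fit differ in sign. Of 44 assembly factors tested, 9 rose and 3 fell in siLmod1, while 0 rose and 1 fell in siSirt1, with medians of 0.08 and -0.09. The shares that fell lay below those of all genes. The member that fell in siSirt1 was Uqcc1, which is needed to make cytochrome b of complex III: it stood at 55.1 ± 9.18 TPM in siCtrl, 70 ± 9.21 in siLmod1 and 31.6 ± 4.92 in siSirt1, with 0.31 (adjusted p = 0.0022) in siLmod1 and -0.94 (adjusted p = 0.0024) in siSirt1. The complex IV factors Coa5 (0.63, adjusted p = 3.4e-05) and Coa4 (-0.80, adjusted p = 0.00072) changed in opposite directions in siLmod1.

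Among 15 electron carriers and genes of ubiquinone synthesis, 8 rose and 1 fell in siLmod1 (median 0.18) and 0 passed in siSirt1 (median -0.12). Etfdh, which passes electrons from fatty acid oxidation to ubiquinone, rose in siLmod1 (0.42, adjusted p = 0.00036), and Coq5, a methyltransferase of ubiquinone synthesis, fell (-0.71, adjusted p = 6.8e-05). Cytochrome c (Cycs) rose by 0.14 (adjusted p = 0.044), and Cyc1, the cytochrome c1 of complex III, was at 0.09 (adjusted p = 0.24). In siSirt1 they were at -0.42 and -0.43 (adjusted p = 0.12 and 0.11). Of 18 genes of the tricarboxylic acid cycle and pyruvate entry, 10 rose and 3 fell in siLmod1 (median 0.15), the 3 being Ogdh (-0.53), Idh2 (-0.48) and Mdh2 (-0.19). In siSirt1 0 rose and 1 fell, Idh3g (-0.39, adjusted p = 0.049). Of 14 markers of mitochondrial mass and inner-membrane carriers, 4 rose in siLmod1 (median 0.09) and 0 passed in siSirt1 (median -0.18), with Ckmt2, the mitochondrial creatine kinase of sarcomeric muscle, at 1.10 (adjusted p = 0.0005) in siLmod1 and -0.94 (adjusted p = 0.096) in siSirt1.

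Of 16 transcriptional regulators of mitochondrial genes, 4 rose and 1 fell in siLmod1, beside 12.9% and 16.5% of all genes, and the list's median was 0.00 in siLmod1 and 0.03 in siSirt1. The coactivator Ppargc1a went from 10.1 ± 3.64 to 17.2 ± 6.63 TPM, higher in 5 of 5 lines (0.72, adjusted p = 7e-05; adjusted p = 0.58 without the block), and stood at 14.5 ± 6.65 TPM in siSirt1 (0.32, adjusted p = 0.14). Gabpa, a subunit of the factor that binds the ETS core, rose by 0.19 (adjusted p = 0.0099) and Tfam, which packages and transcribes mitochondrial DNA, by 0.18 (adjusted p = 0.022). The exons of Gabpa overlap those of the member Atp5j on the opposite strand. Atp5j stood at 213 ± 11.1 TPM in siCtrl and rose by 0.18 in siLmod1 (adjusted p = 0.021). Reads of this pair in the overlap cannot be told apart without strand. Nrf1 was at -0.11 (adjusted p = 0.17) and Esrra at 0.00 (adjusted p = 0.98). In siSirt1 1 regulator fell, the nuclear receptor Esrrb, from 4.61 ± 3.48 to 1.81 ± 1.52 TPM (-1.49, adjusted p = 0.036). None of the genes in these 6 lists passed without the block in either comparison with siCtrl.

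Among markers of other cell types, most fibroblast and smooth muscle markers tested fell in siLmod1, in which 16.5% of all genes fell. Of the fibroblast markers tested 3 of 4 fell with the block, and their summed level was 44.6 to 168 TPM in siCtrl and 32.9 to 98 TPM in siLmod1, lower in 5 of 5 lines. The 3 were Col1a1, Col1a2 and Col3a1, while Pdgfra, Dpt and Lum stayed under 1 TPM in every library. Of the smooth muscle and pericyte markers 3 of 5 fell (Rgs5, Abcc9 and Notch3), at 21.6 to 83.6 and 19.1 to 40.8 TPM, lower in 5 of 5 lines. The list's median was -0.82 for the first and -1.04 for the second. Of the 6 myogenic markers 3 fell, among them Myog, the factor of terminal commitment, from 4281 ± 1706 to 3096 ± 1268 TPM (-0.50, adjusted p = 0.00017). In siSirt1 none of the 4 fibroblast and 1 of the 5 smooth muscle markers passed, Abcc9, which was lower (-1.31, adjusted p = 0.018). Their summed levels in siSirt1 were 45 to 263 and 35.2 to 95.7 TPM. Endothelial markers summed to at most 62.5 TPM (0.833 to 62.5 in siCtrl), macrophage markers to at most 7.43 and glial markers to at most 8.77. The 2 endothelial, 1 macrophage and 2 glial markers tested had no blocked call in either comparison with siCtrl. The macrophage sum was higher in siLmod1 in 5 of 5 lines. The part of cell composition in the members' levels was not tested.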

How the data were processed

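Polyadenylated RNA of 15 libraries was read as the raw counts per gene that the authors deposited and as the TPM values that the authors deposited, 1 table of each for each of the 3 pairs of groups. The submitters' processing notes name DESeq2 and the build mm10, while no aligner, counter or annotation is given in the sources used here. Members were matched by gene ID to GENCODE M21 (GRCm38). Members and gene lists were chosen with earlier results of these data known. Each pair of groups was fitted with edgeR 4.0.16 (quasi-likelihood, TMM, filterByExpr; R 4.3.3) and Benjamini-Hochberg adjustment over all genes tested, without and with the line as a block (8 and 4 residual degrees of freedom). The series text names 5 primary lines. Residuals of same-numbered libraries correlated at 0.253 to 0.861 over 15716 genes (median 0.681, 15 pairs). Other pairs lay at -0.493 to 0.269 (median -0.126, 60 pairs), so the numbers were taken to pair the libraries. The correlations do not single out the pairing of siSirt1 line 1. It correlated at 0.253 with siCtrl line 1, 0.269 with siCtrl line 3 and 0.277 with siLmod1 line 1. Blocked fits and line counts of siSirt1 still use it as line 1. Each line was transfected once per group. Without the block, p-values set a difference against the spread between the libraries of the pair of groups. With the block, they set it against the spread of the differences within lines.

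Named members are those with the smallest p per complex and comparison in either fit, all paralog pairs, the highest and lowest level of each complex, and Sdha to Sdhd. From each related list the 2 genes with the smallest blocked p in each comparison were eligible, with Cyc1, Cycs and the main regulators; others are named where a count is small, after their values were seen. Levels between genes are compared in TPM. For single members, the number of lines higher or lower is from TMM-scaled counts, and for summed levels from TPM. DESeq2 1.42.0, limma 3.58.1 on log2(TPM + 1), other scalings and filters, and leaving out libraries were the alternatives. Intervals from a count of 0 cover counting error only. A result for 1 member is not reported here.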

Additional observations from a re-analysis of the deposited data

Results flagged for a closer look

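Of 167 groups of 5 libraries checked, 8 held a library far from the other 4 by Dixon's ratio (above 0.71), and chance gives about 5% of groups. Line 7 was low in siCtrl for Atp5g3, at 662.3 TPM with the next library at 887.5, and for the summed level of complex III, at 2891 TPM with the next at 3481. In siSirt1 line 7 was high for the share of Atp5g2 in the c-ring TPM, at 24.7% with the next at 19%. Cox6b2 stood out in siLmod1 line 3, at 6.607 TPM with the next at 3.094, which is 0.614% of the subunit 6b TPM with the next at 0.251%. In siSirt1 line 2 the share of Cox6b2 was low, at 0.0668% with the next at 0.903%. Cox7b2 was listed above 0 in siLmod1 line 1 (0.3615 TPM) and in siSirt1 line 2 (0.2338 TPM) and at 0 in the other libraries of those groups, with 3 counts in all 15 libraries.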

How the results depend on the processing

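The replicate block on the line moved the counts of called members more than any scaling or filter. For siLmod1 against siCtrl edgeR called 0 members without the block and 49 with it, 45 higher and 4 lower. The count was also 49 with DESeq2 size factors and the block, 61 (58 higher) with library totals and the block, 56 (52 higher) with upper quartile scaling and the block, 45 (41 higher) in DESeq2 with the block, and 7 in the blocked fit of all 15 libraries. Leaving out 1 library or line gave 0 to 54. For siSirt1 against siCtrl the count was 0 without the block, 3 with it, 3 with DESeq2 size factors or upper quartile scaling and the block, 1 with library totals and the block, 9 in DESeq2 with the block and 11 in the blocked fit of all 15 libraries, and 0 to 1 with a library or line left out. For siSirt1 against siLmod1 it was 0 without the block and 34 with it, 32 with DESeq2 size factors and the block, 25 with library totals and the block, 31 with upper quartile scaling and the block, 8 in DESeq2, 48 in DESeq2 with the block, 6 in the fit of all 15 libraries and 60 in that fit with the block, and 0 to 46 with a library or line left out. Without the block, that comparison had 1 call without siLmod1 line 7 and 5 without siSirt1 line 2. Over all genes, siLmod1 against siCtrl had 1944 higher and 2486 lower with the block, and 2741 and 1978 with library totals and the block. In siSirt1 against siCtrl these were 406 and 648, and 797 and 441. In siSirt1 against siLmod1 they were 1115 and 1264, and 1409 and 904. The blocked fit of all 15 libraries called 600 and 827, 1184 and 1346, and 2126 and 2084 genes in the 3 comparisons. The cause of the differences between settings was not tested. The members' medians kept their direction under all alternatives run, and relative to the median of all genes lay at 0.15 to 0.23 in siLmod1 and at -0.30 to -0.09 in siSirt1. Library totals moved the median of all genes in siSirt1 to 0.12. Of 3306 values of named members under alternatives, 484 passed the threshold where the unblocked fit did not (464 of them with the block). Since the unblocked fit called no member, these values cannot show a lost call, and 117 uncalled values smaller than their SE changed sign. Of the blocked calls, 21 of 45 higher and 2 of 4 lower in siLmod1, 0 of 3 in siSirt1 and 2 of 34 in siSirt1 against siLmod1 held whichever line was left out. Depth limits Cox7b2, Cox8c, Cox4i2 and Ndufa4l2, for which no test was made.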
